A study of Mus musculus with 2 samples.

Results

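The Schlafen genes are a family of neighbouring, interferon-inducible genes, and Slfn1, Slfn2, Slfn3, Slfn4, Slfn5, Slfn8 and Slfn9 were followed here by their symbols, 7 of the 31053 genes counted. The family was chosen by 1 measured value, the Slfn4 level in tumour macrophages, which was higher in the library labelled KO than in the WT library. That difference, and every other difference between these libraries in macrophages, is therefore given as a description. The cells were live CD45+ cells sorted from B16 tumours, a transplanted mouse melanoma, and were profiled with 10x Genomics 3' single-cell chemistry. The WT library came from Mettl3 fl/fl Lyz2+/+ mice and the library labelled KO from Mettl3 fl/fl Lyz2 cre/+ mice, both aged 8 weeks. The floxed Mettl3 alleles were thus shared by both groups, and the Cre recombinase is driven by the Lyz2 promoter, which is active in macrophages, monocytes and granulocytes and not in macrophages alone. METTL3 is the catalytic subunit of the enzyme that writes N6-methyladenosine on mRNA.

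Each genotype had 1 library, for which cells of the mice of a group had been pooled, so no value below has a replicate and no test between genotypes was possible. Intervals are 95% intervals of the counts and cover counting error only. After filtering, 5405 cells of the WT library and 7625 cells of the library labelled KO were used, with a median of 4148 and 3567 UMIs per cell, and 13 barcode sequences occurred in both libraries. Cells were assigned to classes by marker genes. The macrophage-like class (C1qa, C1qb, C1qc, Apoe and others) held 1572 and 2147 cells, the monocyte-like class (Ly6c2, Plac8, Chil3, Ccr2 and others) 766 and 2151, and the granulocyte-like class (S100a8, S100a9, Cxcr2 and others) 622 and 281. Although CD45+ cells had been sorted, 135 and 226 cells were melanoma-like (Pmel, Mlana, Dct), with a median of 46788 and 34561 UMIs. Mettl3 mRNA did not show the labelled deletion: it stood at 10.2 CPM (UMIs of a gene per 1000000 UMIs of the class) in WT and 11.1 CPM in KO macrophage-like cells, a log2 ratio of KO over WT of 0.12 (-0.20 to 0.44). Counts near the 3' end may not show the loss of an internal exon, which was not tested. Lyz2, 1 allele of which carries the Cre, was lower in the library labelled KO, at 6305 and 2727 CPM in macrophage-like cells, a log2 ratio of -1.21.

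Schlafen genes were first described as brakes on the growth of developing T cells, and most of them are switched on by type I interferon through the transcription factor complex ISGF3. Short members such as Slfn1 and Slfn2 hold little more than the core domain that all members share, and the long members Slfn5, Slfn8 and Slfn9 carry an additional helicase-like part. Several Schlafen proteins cut or bind tRNA. In myeloid cells Slfn4 is the member best known as a gene that responds to interferon and to bacterial ligands.

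All 7 genes lay close together on mouse chromosome 11 (GRCm38, the same assembly as mm10), between 82951349 and 83215154, a stretch of 263806 bases. In order they were Slfn5 (82951349 to 82964840), Slfn9 (82978390 to 82991830), Slfn8 (83002158 to 83020810), Slfn2 (83065112 to 83070678), Slfn1 (83116849 to 83122670), Slfn4 (83175186 to 83190216) and Slfn3 (83191330 to 83215154). Slfn8 and Slfn9 were on the minus strand and the other 5 on the plus strand. Slfn3 began 1114 bases after the end of Slfn4. Their GENCODE coding sequences fell into the known size groups, with 337 codons for Slfn1, 378 for Slfn2, 640 for Slfn3, 602 for Slfn4, 884 for Slfn5 and 910 each for Slfn8 and Slfn9. Coding sequences of 2 pairs were nearly alike, Slfn3 with Slfn4 at 92.3% identity and Slfn8 with Slfn9 at 92.7%, and the other pairs lay between 57.6% and 75.3%. Cell Ranger counts a read only where it maps to 1 gene, so reads in stretches shared by counted genes are lost. The annotation also placed the antisense gene Slfn5os over Slfn5 and Gm20234 over Slfn2. Within the transcript ends that 3' chemistry reads, 0.81% of the 90-base windows of Slfn3 were also found in Slfn4, and 9.49% and 9.65% of those of Slfn8 and Slfn9 in the pseudogene Slfn10-ps, which is not a row of the matrix analysed here. Between the counted members Slfn8 and Slfn9, 2.52% of the windows of Slfn8 were found in Slfn9 and 1.46% of those of Slfn9 in Slfn8, whereas no window from the ends of Slfn1, Slfn2, Slfn4 and Slfn5 was found in another of these genes.

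The promoters of Slfn5, Slfn8 and Slfn9 held the core letters of the interferon-stimulated response element, to which ISGF3 binds, and these sites are shown because the family is followed below beside other interferon genes. These letters, GAAA and GAAA with any 2 bases between them, were searched on both strands and occurred in the RefSeq promoter window (250 bases before to 50 after the start site, GRCm38.p6) of these 3 of the 7 members, and in that of 3.99% of 27025 genes. The capitals mark the match, which in Slfn8 and Slfn9 was on the opposite strand of the gene, and each sequence is written along its gene.
Slfn5: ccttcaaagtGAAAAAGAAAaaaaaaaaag
Slfn8: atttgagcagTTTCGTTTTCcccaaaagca
Slfn9: atccgagcagTTTCGTTTTCccaaaaacaa
The match in the Slfn5 window (chr11:82951937-82951966, plus strand) lay from -155 to -146 relative to the RefSeq start site, that in the Slfn8 window (chr11:83020839-83020868, minus strand) from -48 to -39 of its nearer annotated start site and that in the Slfn9 window (chr11:82991856-82991885, minus strand) from -45 to -36. The RefSeq start site of Slfn5 (82952102) lay downstream of its GENCODE start (82951349), so the Slfn5 match was inside the GENCODE gene. The 10 matched letters were the same in Slfn8 and Slfn9. The windows of Slfn1, Slfn2, Slfn3 and Slfn4 did not hold these letters. The letters TTCNNNGAA of the gamma-activated site were in none of the 7 windows and in that of 9.55% of genes.

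Slfn4 was above all a granulocyte gene in these tumours. In the WT library it reached 1525 CPM (1455 to 1597) in granulocyte-like cells, 96.8 CPM (86.9 to 108) in monocyte-like cells and 26.5 CPM (24.0 to 29.3) in macrophage-like cells. In the library labelled KO the same classes had 1381 CPM (1279 to 1489), 191 CPM (182 to 201) and 70.3 CPM (66.2 to 74.6). The order of these 3 classes was thus the same in both libraries and their intervals did not overlap. A granulocyte-like cell carried a Slfn4 UMI in 68.8% of WT and 65.1% of KO cells, at a median depth of 1329 and 1071 UMIs. Melanoma-like cells, which should lack the gene, had 2.20 and 1.62 CPM.

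The other short and long members had their own orders. Slfn1 and Slfn2, which in T cells are linked to quiescence, were highest in granulocyte-like and then in monocyte-like cells of both libraries, Slfn1 at 465 and 218 CPM in WT and 544 and 255 CPM in KO cells. Slfn2 was at 829 and 708 CPM in WT and 948 and 809 CPM in KO cells. It was also widely spread, with 182 to 398 CPM in WT cDC2-like, other T-like, macrophage-like, B-like, CD4 T-like, cDC1-like, NK-like, mature DC-like and CD8 T-like cells. Slfn5, an interferon-induced long member, was highest in monocyte-like cells, at 442 CPM in WT and 625 CPM in KO cells. Next came cDC2-like cells (246 and 354 CPM) and cDC1-like cells (240 and 316 CPM), whose intervals overlapped each other. Its lowest level in an immune class was in CD8 T-like cells of WT (32.3 CPM) and in NK-like cells of the library labelled KO (23.7 CPM).

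Slfn8, a long member, had no clear leading class in WT, where CD4 T-like, monocyte-like, other T-like, B-like, NK-like, granulocyte-like and pDC-like cells lay between 52.4 and 84.7 CPM with overlapping neighbours. In the library labelled KO monocyte-like cells were the highest at 112 CPM (105 to 119), followed by other T-like cells at 72.4 CPM (54.7 to 94.1), whereas the wider intervals of NK-like (45.5 to 106) and pDC-like cells (43.2 to 109) overlapped that of monocyte-like cells. Slfn9, unlike the 5 other members that were above 10 CPM in macrophage-like cells, had overlapping intervals in melanoma-like and macrophage-like cells of WT, 27.2 CPM (23.2 to 31.8) against 28.4 CPM (25.8 to 31.3), with the other 6 members between 0.85 and 5.58 CPM there. In the library labelled KO the melanoma-like level of Slfn9 was 18.8 CPM (15.8 to 22.2). Slfn3 was low in every class, from 0 to 5.92 CPM, with neighbouring intervals that all overlapped. In macrophage-like cells it was detected at 2.23 and 2.99 CPM, from 34 and 47 UMIs. It did not pass the filter of a mean of 10 CPM in any of the classes compared across all genes.

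**Figure D1:**
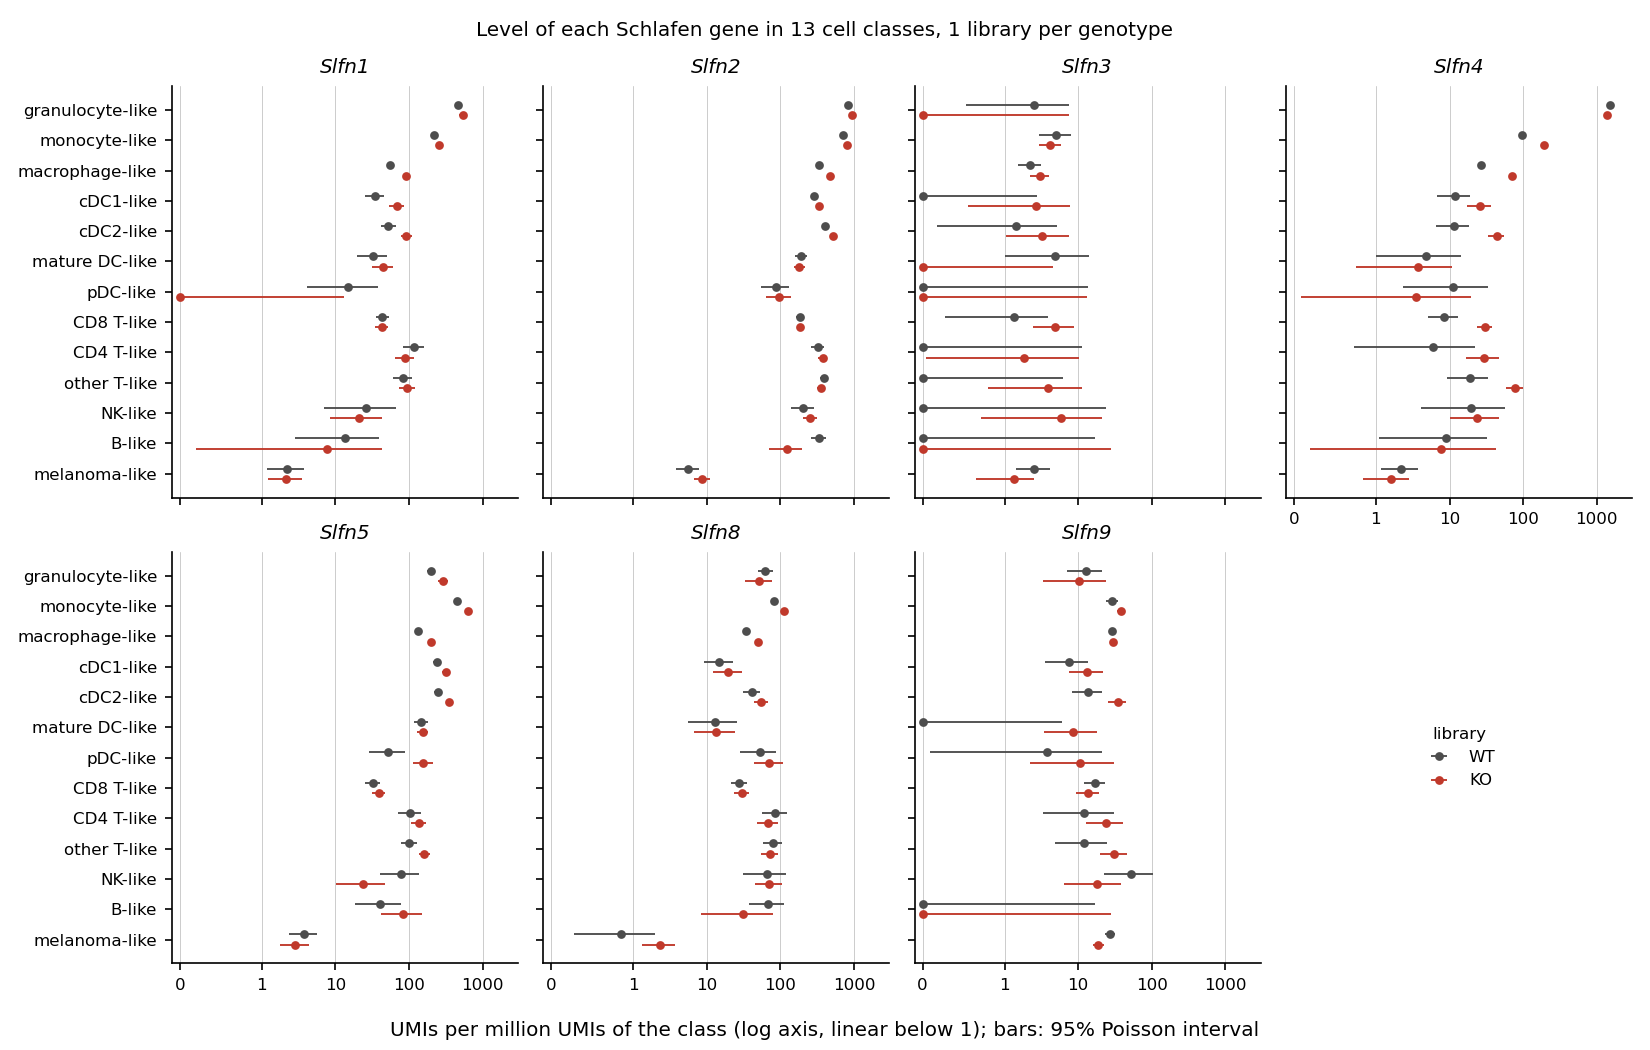
Levels of the 7 Schlafen genes (x axes, CPM on a log axis that is linear below 1) in 13 cell classes (rows) of the WT (grey) and KO (red) libraries, with 95% Poisson intervals as bars. Slfn4 stands at 1525 and 1381 in granulocyte-like cells, and in macrophage-like cells at 26.5 in WT and 70.3 in KO.

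In macrophage-like cells 5 of the 7 members were higher in the library labelled KO by more than counting error, beside 19.3% of the 7474 genes with a mean of at least 10 CPM, and Slfn4 differed by the most. Slfn4 was at 26.5 CPM (405 UMIs) in WT and at 70.3 CPM (1106 UMIs) in KO cells, a 2.65-fold difference and a log2 ratio of 1.41 (1.24 to 1.57). Slfn1 was at 55.0 and 90.5 CPM, a log2 ratio of 0.72 (0.60 to 0.84). Slfn2 was at 337 and 465 CPM, a log2 ratio of 0.47 (0.41 to 0.52). The long members Slfn5 and Slfn8 were alike in size, with log2 ratios of 0.56 (0.48 to 0.64) from 133 to 196 CPM and 0.56 (0.40 to 0.73) from 34.1 to 50.4 CPM. Slfn9 did not differ beyond counting error, at 28.4 and 29.8 CPM, a log2 ratio of 0.07 (-0.12 to 0.26). Slfn3 had only 34 and 47 UMIs, and its interval of -0.24 to 1.104 reached 0.

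Set against all genes, 2 members passed a 1.5-fold difference on the log2(CPM + 1) scale, Slfn4 and Slfn1, of 6 that had a mean of at least 10 CPM, and 1.02% of all 7474 genes tested passed it in this direction and 0.361% in the other. Slfn4 was 6th of the 7474 genes from the highest ratio, after Lyz1, Retnla, Inhba, Igkc and Ctsk. Slfn1 was 49th, Slfn5 97th, Slfn8 103rd, Slfn2 156th and Slfn9 2820th. Slfn5 and Slfn8, with ratios of 0.56 and 0.55 on this scale, were the members closest below the threshold, and Slfn1, with 0.71, the closest above it. Since the contrast chose the family, nothing is read from these places.

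**Figure D2:**
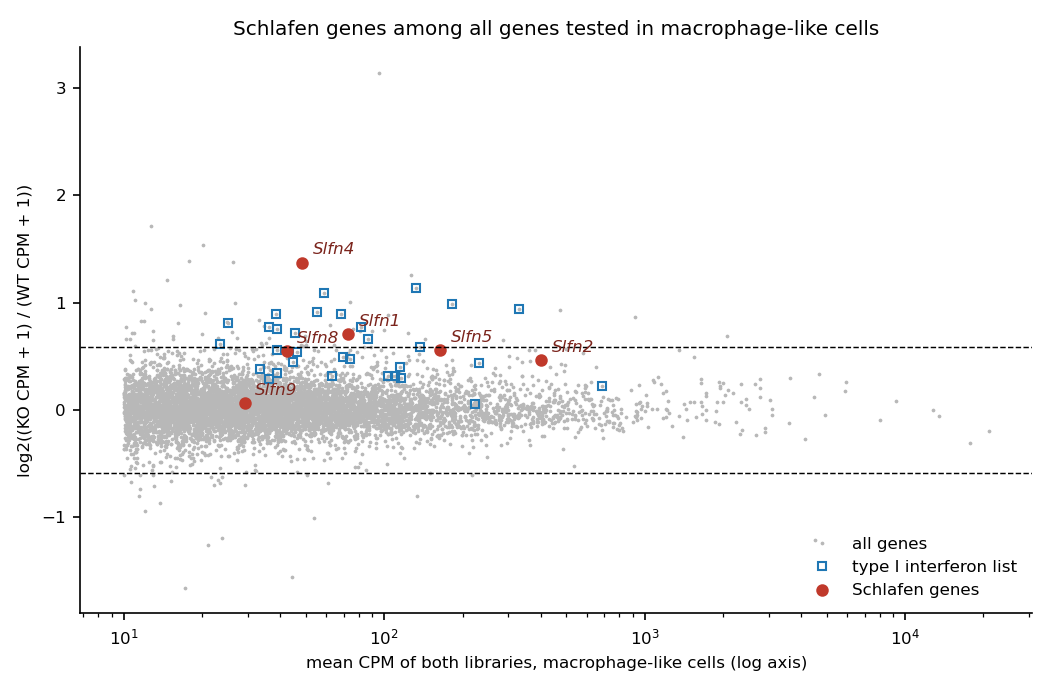
Each of 7474 genes in macrophage-like cells by its mean CPM in both libraries (x axis, log) and its log2 ratio of CPM + 1, KO over WT (y axis), with Schlafen genes in red, the type I interferon list as blue squares and dashed lines at 1.5-fold. Slfn4, whose level chose the family, lies above all squares at 1.37 and Slfn9 near 0 at 0.07.

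Other things also differed between the macrophage-like cells of the 2 libraries, and their part in the Slfn4 difference was not tested. Of 10 monocyte markers 8 were higher in the library labelled KO, and their summed level was 1082 CPM in WT and 1487 CPM in KO cells with no marker at 0. Ly6c2, a marker of classical monocytes, was at 74.1 and 179 CPM. Of 9 macrophage markers 2 were higher, with sums of 15454 and 14099 CPM. Of 8 markers of granulocytes, the cells with the most Slfn4, 3 were higher, and their sum was 100.3 CPM in WT and 68.3 CPM in KO cells, with S100a9 at 26.5 and 7.76 CPM. Median depth was 7556 UMIs in WT and 5284 UMIs in KO cells. Within 1.5-fold of the boundary between the macrophage-like and monocyte-like classes lay 6.17% of WT and 11.8% of KO macrophage-like cells.

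The share of macrophage-like cells with a Slfn4 UMI was 14.1% in WT (12.4 to 15.9) and 22.3% in KO (20.5 to 24.1) at full depth. With each cell thinned to 1000 UMIs, which left out 156 and 256 shallower cells, the shares were 4.03% of 1416 cells (3.06 to 5.18) and 8.41% of 1891 cells (7.20 to 9.75). In melanoma-like cells, as a background, 8.15% (4.14 to 14.1) and 4.87% (2.45 to 8.54) had a Slfn4 UMI at full depth, with medians of 46788 and 34561 UMIs, the former overlapping the WT macrophage-like share, and after thinning 0 of 126 cells (exact upper limit 2.89%) and 0.51% of 195 cells (upper limit 2.82%) had one. For Slfn9 the thinned shares were 2.54% and 2.38%. How cells were weighted moved the Slfn4 level more than 1.5 times: as the mean of per-cell CPM it was 86.9 in WT and 155 in KO cells, a log2 ratio of 0.84, and with equal weight per cluster 57.5 and 108 CPM, a log2 ratio of 0.90. With equal weight per cluster the log2 ratios of Slfn1, Slfn2, Slfn5 and Slfn8 were 0.23, 0.31, 0.27 and 0.20.

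In monocyte-like cells the same 5 members were higher by more than counting error, and Slfn9 as well, beside 14.2% of 7197 genes. Slfn4 was at 96.8 and 191 CPM, a log2 ratio of 0.98 (0.81 to 1.15) that was 1.70 with classes from clusters. Only clusters 3 and 7 were named monocyte-like, so that class left out cluster 9, led by interferon genes, and clusters 0, 2 and 10. Slfn5 was at 442 and 625 CPM, a log2 ratio of 0.50 (0.42 to 0.58), and Slfn8 at 82.8 and 112 CPM, a log2 ratio of 0.44 (0.24 to 0.63). For Slfn9 the levels were 29.1 and 38.2 CPM, a log2 ratio of 0.39 (0.07 to 0.73). Slfn1 had a log2 ratio of 0.22 (0.10 to 0.34) and Slfn2 one of 0.19 (0.13 to 0.26), and in some subsets of the class given below the intervals of both lay below 0 or reached it. These ratios placed Slfn1 and Slfn2 1274th and 1495th of the 7197 genes. In this class 4 of 10 monocyte markers were higher (sums 7811 and 8126 CPM) and 2 of 9 macrophage markers (2328 and 2166 CPM). Of 8 granulocyte markers 1 was higher (180 and 127 CPM), and of 6 pDC markers 2 (420 and 649 CPM). The part of these markers in the differences was not tested. Past 1.5-fold was 1 of 6 members, Slfn4, beside 2.64% of 7197 genes higher and 1.13% lower. With macrophage-like and monocyte-like cells summed as 1 class, 4 of 6 members passed it (Slfn1, Slfn4, Slfn5 and Slfn8), beside 1.88% of 7455 genes higher and 0.805% lower. Monocyte-like cells were 766 of the 2338 WT and 2151 of the 4298 KO cells of this summed class. Its log2 ratios for these 4 members (0.77, 1.48, 0.84 and 0.72) were above those of each class alone. The part of this difference in mix was not tested.

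Granulocyte-like cells, the class with the most Slfn4, had no stable difference in it. Slfn4 had a log2 ratio of -0.14 (-0.27 to -0.01), which turned to 0.23 with classes from clusters and to 0.13 as the mean of per-cell CPM, and within both clusters that held enough cells of this class the interval reached 0, at 1650 and 1591 CPM in the cluster led by S100a8 and 1498 and 1501 CPM in the cluster led by Cxcl2. The lowest Slfn4 log2 ratio of this class under the alternatives tried was -0.47. Slfn5 was higher, at 200 and 291 CPM, a log2 ratio of 0.55 (0.23 to 0.85), and 10.6% of the genes in this class had an interval above 0. Slfn1 and Slfn2 had log2 ratios of 0.22 (0.01 to 0.44, and -0.082 after thinning) and 0.19 (0.03 to 0.35). In these cells 7 of 10 monocyte markers (sums 1783 and 2553 CPM) and 6 of 6 MHC class II genes (4173 and 6533 CPM) were also higher, and 1 of 8 granulocyte markers (125124 and 102592 CPM), and their part in these differences was not tested. None of 6 members passed 1.5-fold, where 19% of 6500 genes were higher and 7.52% lower by that much. Granulocyte-like cells made up 11.5% of WT and 3.69% of KO cells and held 53.7% of all Slfn4 UMIs in the WT library and 15.9% in the library labelled KO, and over all cells used Slfn4 was at 80.1 and 89.7 CPM.

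Summed Slfn4 was also higher in the conventional dendritic cell classes of the library labelled KO, from few UMIs. In cDC2-like cells Slfn4 was at 11.5 CPM (16 UMIs) and 43.4 CPM (67 UMIs), a log2 ratio of 1.92 (1.12 to 2.81) that was 0.49 with classes from clusters. The 67 KO UMIs were in 23 cells, 1 of which had 13, and after thinning 1.71% (0.35 to 4.93) of WT and 2.51% (0.93 to 5.38) of KO cells had a Slfn4 UMI. In the same class Slfn1, Slfn2, Slfn5 and Slfn9 also had intervals above 0, beside 7.81% of 7348 genes. In cDC1-like cells Slfn4 was at 11.8 and 25.8 CPM, a log2 ratio of 1.13 (0.20 to 2.10) that was -0.32 after thinning, with Slfn1, Slfn2 and Slfn5 also above 0, beside 7.7% of 7127 genes. The summed monocyte markers were also higher, 10 of 10 in cDC2-like cells (1789 and 2732 CPM) and 7 of 10 in cDC1-like cells (1202 and 1587 CPM), and their part in these differences was not tested. In pDC-like cells Slfn5 was at 52.4 and 156 CPM from 14 and 44 UMIs, and in mature DC-like cells Slfn9 had 0 and 7 UMIs.

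T-like cells had few Slfn4 UMIs, and their summed level was higher in KO than in WT. The CD8 T-like cells had 8.40 CPM (19 UMIs) in WT and 29.96 CPM (68 UMIs) in KO cells, a log2 ratio of 1.83 (1.08 to 2.65) that was 0.52 with classes from clusters and 2.77 after thinning, and other T-like cells 18.8 and 76.3 CPM, a log2 ratio of 2.02 (1.08 to 3.10). In other T-like cells 8 WT and 18 KO cells held these 11 and 59 UMIs, and 2 KO cells had 10 or more, with 14 as the most in a single cell. Lyz2, a myeloid gene, was lower in the library labelled KO, at 1006 CPM in WT and 214 CPM in KO CD8 T-like cells and at 848 and 520.1 CPM in other T-like cells. In CD8 T-like cells 3 of 9 macrophage markers were higher (sums 643 and 534 CPM), 2 of 10 monocyte markers (1872 and 1663 CPM) and 0 of 8 granulocyte markers (69.0 and 41.4 CPM). In other T-like cells the sum of the monocyte markers was 1315 and 1586 CPM with 3 of 10 markers higher, that of the macrophage markers 1058 and 743 CPM with 3 of 9 higher and that of the granulocyte markers 125 and 55.6 CPM with 1 of 8 higher. The part of myeloid RNA in the Slfn4 difference was not tested, and Lyz2 was also lower in the myeloid classes. A Slfn4 UMI was found in 4.43% of WT and 8.00% of KO CD8 T-like cells at medians of 2883 and 2537 UMIs. After thinning it was found in 0.81% of 372 cells (0.17 to 2.34) and 3.31% of 363 cells (1.72 to 5.70), which overlap the limits in melanoma-like cells and are not read as expression. In other T-like cells the shares were 3.24% and 5.14% at full depth and 1.83% (0.50 to 4.63) and 3.21% (1.48 to 6.01) after thinning, which overlap each other and those limits and are likewise not read as expression. In NK-like and B-like cells, which had 3 and 8 and 2 and 1 Slfn4 UMIs, no difference was detectable at this depth.

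**Figure D3:**
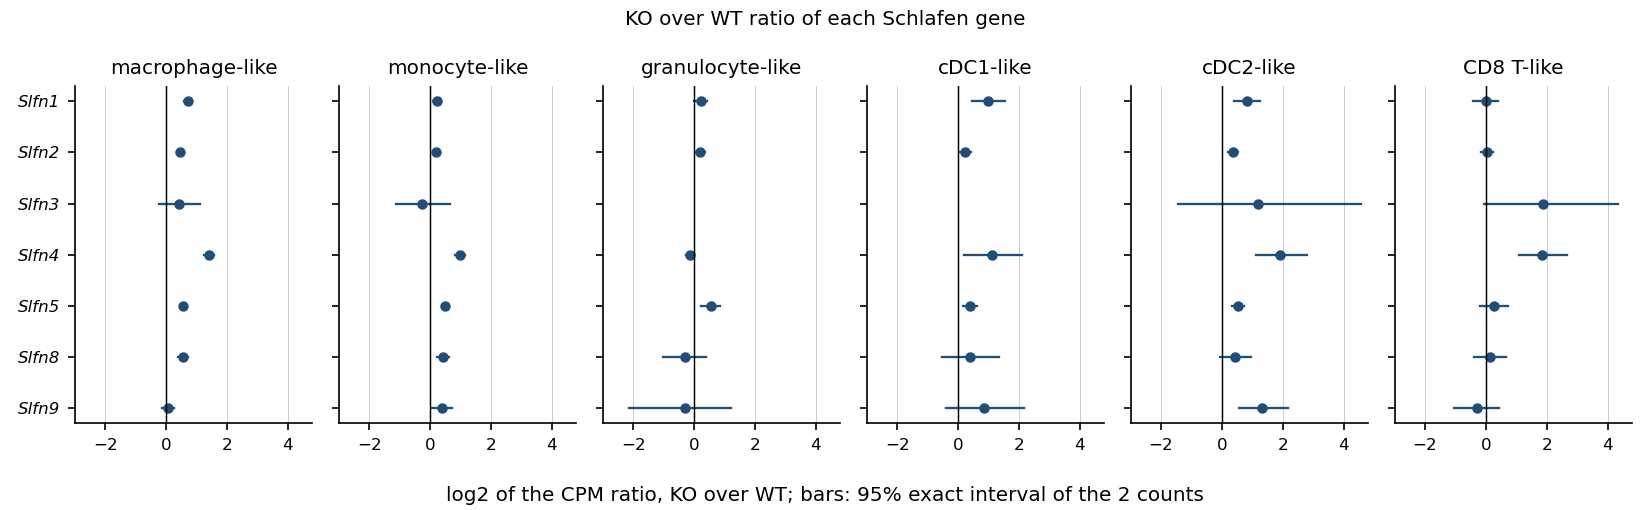
Log2 ratio of the CPM of each Schlafen gene, KO over WT (x axis), in 6 cell classes, with the 95% exact interval of the 2 counts as bars and a line at 0. Slfn4 lies at 1.41 in macrophage-like, 0.98 in monocyte-like and -0.14 in granulocyte-like cells, and genes without a UMI in 1 library have no point.

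The Slfn4 ratio of macrophage-like cells differed in size between clusters. Clusters were made on both libraries together without the Schlafen genes, and 9 of them held at least 20 macrophage-like cells of each library. By their markers only clusters 0, 1 and 11 were named macrophage-like and cluster 3 monocyte-like, and the other 5 stayed unnamed, among them clusters 2 and 10, with the monocyte markers Vcan and Ccr2 among their leading genes, and cluster 15, led by the lymphocyte genes Gzma and Ccl5. The libraries filled the clusters differently, with 288 of 1572 WT and 577 of 2147 KO macrophage-like cells in cluster 0, 479 and 490 in cluster 1 and 48 and 136 in cluster 9. The ratios with equal weight per cluster are those given above. The Slfn4 ratio was above 0 in 8 of the 9, with an interval above 0 in 6, and in the remaining cluster, cluster 3, WT had no UMI. In cluster 0, led by Mmp12, Slfn4 was at 51.4 and 123 CPM, a log2 ratio of 1.26 (0.97 to 1.57). In cluster 2, led by Ccl24 and Fn1, it was at 21.5 and 44.5 CPM, a log2 ratio of 1.05 (0.34 to 1.79). In cluster 1, led by Ccl8 and Ms4a7, it was at 10.8 and 16.1 CPM, a log2 ratio of 0.57 (0.08 to 1.07).

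The highest macrophage levels of Slfn4 were in 2 clusters, 9 and 5. Cluster 9, led by the interferon genes Rsad2, Ifit2 and Ifit1, had 196 and 322 CPM, a log2 ratio of 0.72 (0.36 to 1.09). Cluster 5, which had a median of 821 UMIs per cell and was led by Gm26917, Gm42418 and the nuclear RNAs Neat1 and Malat1, had 160 and 330 CPM, a log2 ratio of 1.04 (0.44 to 1.68). Leaving out cluster 9 gave a log2 ratio of 1.31 for the whole class and leaving out cluster 5 one of 1.39. Cycling cells of cluster 11 (Mki67, Top2a) were the lowest with UMIs in both libraries, at 7.77 and 13.2 CPM, whereas Slfn9 was at 44.0 and 51.7 CPM there, above its class level of 28.4 and 29.8 CPM.

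Splits by single features gave the same direction with different sizes. Macrophage-like cells with a Ly6c2 UMI had 31.9 CPM of Slfn4 in WT (333 cells) and 121 CPM in KO (674 cells), a log2 ratio of 1.92 (1.66 to 2.19). Those without had 24.4 CPM (1239 cells) and 39.2 CPM (1473 cells), a log2 ratio of 0.68 (0.45 to 0.92). Cells with 3 or more cell cycle UMIs had 11.2 and 19.8 CPM, and those with fewer 46.8 and 115 CPM. Above and below the median of MHC class II genes the log2 ratios were 1.25 and 1.56. A cell with no UMI of a gene may still express it, so the Ly6c2 and cell cycle splits can also follow depth.

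In monocyte-like cells the Slfn4 interval reached 0 in 3 of 6 clusters and was above 0 in the other 3. In the interferon-led cluster Slfn4 was at 506 CPM in 46 WT cells and 508 CPM in 305 KO cells, a log2 ratio of 0.01 (-0.28 to 0.31). In cluster 0 it was at 293 and 332 CPM, a log2 ratio of 0.18 (-0.16 to 0.53), and in cluster 10 at 67.0 and 78.9 CPM, a log2 ratio of 0.24 (-0.45 to 0.93). Of the 6, the interferon-led cluster and cluster 0 had the highest Slfn4 levels in both libraries. In cluster 3, led by Ace and Hp, it was at 13.3 and 41.4 CPM, a log2 ratio of 1.64 (0.82 to 2.55), and in cluster 2 at 31.4 and 79.5 CPM, a log2 ratio of 1.34 (0.67 to 2.08). In cluster 7 it was at 60.8 and 133 CPM, a log2 ratio of 1.13 (0.59 to 1.71). Slfn5 in the interferon-led cluster was at 1322 and 1214 CPM, and Slfn1 at 488 and 329 CPM, with an interval of -0.88 to -0.25 for its log2 ratio. Slfn2 and Slfn9 were lower there as well, with log2 ratios of -0.23 (-0.42 to -0.04) and -0.68 (-1.25 to -0.07).

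**Figure D4:**
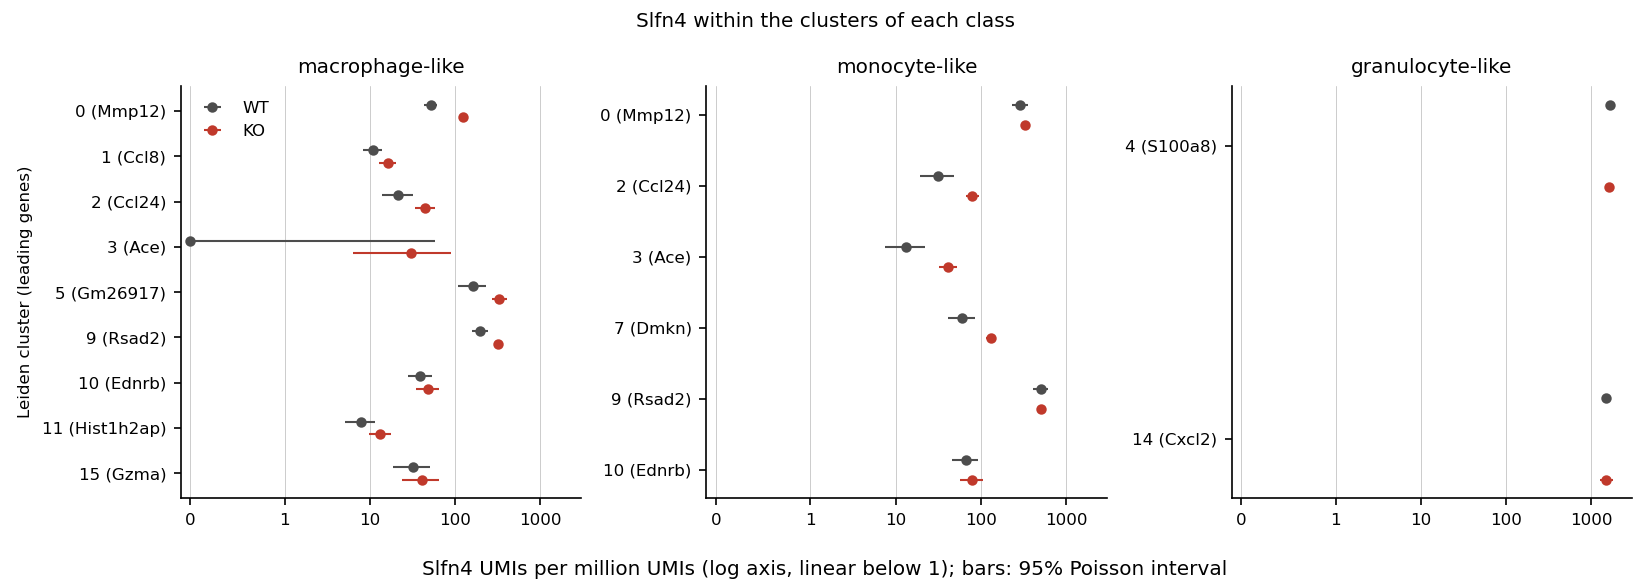
Slfn4 level (x axes, CPM on a log axis that is linear below 1) in the Leiden clusters (rows, each with its leading gene) of macrophage-like, monocyte-like and granulocyte-like cells of the WT (grey) and KO (red) libraries, with 95% Poisson intervals. In macrophage-like cluster 0 the level was 51.4 in WT and 123 in KO, in monocyte-like cluster 9 it was 506 and 508.

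Genes of the type I interferon response were also higher in macrophage-like cells of the library labelled KO. Of 31 listed genes with a mean of 10 CPM in macrophage-like cells, 15 were higher by 1.5-fold in the library labelled KO and none lower, 31 of 31 had a ratio above 0, and the median log2 ratio was 0.56, beside 0.02 over all genes. The highest were Rsad2, an antiviral enzyme, at 82.7 and 183 CPM (1.13 on the log2(CPM + 1) scale), Oasl1 at 37.2 and 80.6 CPM (1.09), the transcription factor Irf7 at 121 and 242 CPM (0.99) and the ubiquitin-like Isg15 at 226 and 434 CPM (0.94). Among the lowest were Bst2 at 630.4 and 737 CPM (0.23), Ifih1 at 32.5 and 39.9 CPM (0.29) and Sp100 at 104 and 129 CPM (0.30). The ratio of Slfn4 on this scale, 1.37, was above that of each of the 31, and those of Slfn5 (0.56) and Slfn8 (0.55) were near the median. Since the Slfn4 contrast chose the family, nothing is read from its place among the type I genes. With equal weight per cluster 0 type I genes passed 1.5-fold and their median was 0.26, and Slfn4 was then the only member to pass it.

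In monocyte-like cells 17 of 33 type I genes were higher by 1.5-fold, beside 2.64% of all genes, with a median of 0.59, and in granulocyte-like cells 13 of 33 were higher and 1 lower, beside 19% and 7.52% of all genes, with a median of 0.44 beside 0.15 over all genes. In CD8 T-like cells 8 of 29 were higher and none lower, beside 3.28% and 3.22% of all genes, with a median of 0.26. Genes that respond to type II interferon did not pass 1.5-fold in macrophage-like cells (0 of 15, median 0.15), but 8 of 15 did in monocyte-like cells (median 0.64). Of 17 interferon receptors and signalling genes 2 passed it in macrophage-like cells, Irf7 and Usp18, themselves induced by interferon. The receptor chain Ifnar1 was at 96.9 and 101 CPM and Ifnar2 at 107 and 101 CPM. None of 10 cell cycle genes and none of 6 MHC class II genes passed it, with medians of -0.20 and 0.13.

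Levels of most members were higher in cells with more RNA of the type I list. Macrophage-like cells of both libraries were ranked together by the summed list per 10000 UMIs and divided into 3 ranges of equal cell number, which are not cell types, and 15.4% of cells in each library lay within 1.1-fold of a cut. The WT library had 41.6% of its cells in the lowest and 23.4% in the highest range, the library labelled KO 27.3% and 40.6%. The median depth of the highest range was lower, 5183 UMIs in WT and 4527 in KO, than that of the lowest, 8207 and 6120. Slfn4 was at 7.00, 16.9 and 99.1 CPM from the lowest to the highest range in WT and at 7.88, 25.9 and 170 CPM in KO cells. In the highest range its log2 ratio was 0.78 (0.58 to 0.99), and in the lowest 0.17 (-0.50 to 0.83).

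Within these ranges Slfn5 and Slfn8 differed beyond counting error in the middle one only, with log2 ratios of 0.37 (0.22 to 0.51) and 0.45 (0.15 to 0.74). Slfn5 was at 52.8 CPM in both libraries in the lowest range and at 378 and 367 CPM in the highest, a log2 ratio of -0.04 (-0.15 to 0.07). Slfn8 was at 18.6 and 17.7 CPM in the lowest range and 87.5 and 90.5 CPM in the highest, a log2 ratio of 0.05 (-0.18 to 0.28). Slfn1 had log2 ratios of -0.02 (-0.38 to 0.34), 0.50 (0.28 to 0.73) and 0.18 (0.01 to 0.36) from the lowest to the highest range, and Slfn2 had intervals above 0 in each range, with ratios of 0.19, 0.38 and 0.25. Slfn9 was lower in the highest range of the library labelled KO, at 50.7 and 36.4 CPM, a log2 ratio of -0.48 (-0.80 to -0.15). In the highest range of monocyte-like cells Slfn4 was at 347 and 376 CPM, a log2 ratio of 0.12 (-0.09 to 0.33), and in their lowest range at 16.9 and 37.1 CPM, a log2 ratio of 1.13 (0.50 to 1.79). In their middle range it was at 83.6 and 84.6 CPM, a log2 ratio of 0.02 (-0.33 to 0.38). The lowest range held 51.8% of WT and 26.7% of KO monocyte-like cells, and the highest 17.8% and 38.9%. Slfn1 in monocyte-like cells was higher in the lowest range (0.30, 0.05 to 0.56) and lower in the middle (-0.23, -0.43 to -0.03) and highest range (-0.22, -0.42 to -0.02) of the library labelled KO, and the intervals of Slfn2 and Slfn5 reached 0 in each range.

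**Figure D5:**
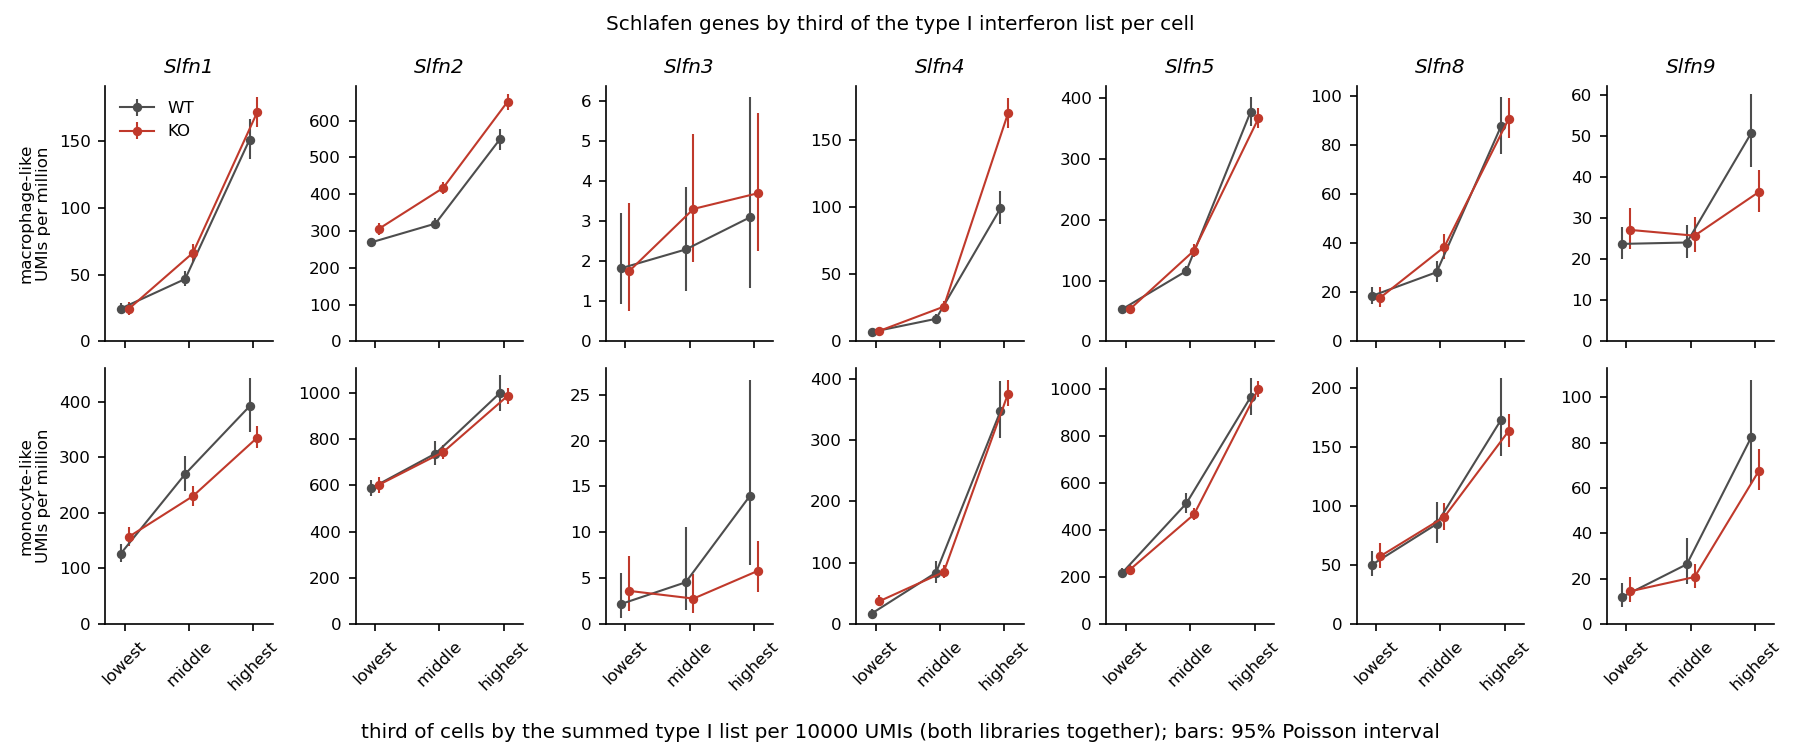
Level of each Schlafen gene (y axes, CPM) in the lowest, middle and highest range of macrophage-like (top) and monocyte-like (bottom) cells by their summed type I interferon list, in the WT (grey) and KO (red) libraries, with 95% Poisson intervals. Slfn4 in the highest range of macrophage-like cells was at 99.1 in WT and 170 in KO, and Slfn5 at 378 and 367.

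The profile of Slfn4 over the 26 sums of 13 classes in 2 libraries was compared with those of 6521 genes. Those most like it on the log2(CPM + 1) scale were Upp1 (Pearson r = 0.92), Mmp8, a collagenase of neutrophils (0.91), Acod1, which makes itaconate (0.90), Clec4d (0.89) and Hp (0.89). Slfn1 was most like Clec4d, Pla2g7 and Lasp1 (0.93, 0.92 and 0.91), and Slfn2 like S100a6, Parp14 and Ncf4 (0.93, 0.92 and 0.92). Slfn5 was most like Samhd1, Gnai2 and Ctss (0.94, 0.92 and 0.90), Slfn8 like Tgfb1, Bin2 and Cd53 (0.93, 0.91 and 0.91), and Slfn9 like Dse, Wdr61 and Lgals3bp (0.85, 0.85 and 0.82). Between members the coefficients ran from -0.05 for Slfn3 with Slfn8 to 0.85 for Slfn2 with Slfn5, and the near-identical Slfn8 and Slfn9 had 0.10. The sums share libraries and differ in depth, so these coefficients are descriptions.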

How the data were processed

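Cells of 1 library per genotype were analysed. The deposited matrix holds whole-number UMI counts that the authors made with Cell Ranger (4.0.0 per the file headers) on mm10, without normalisation, and a deposited table assigned each barcode to its library. The library totals were 45963969 UMIs in 5895 WT barcodes and 54052317 UMIs in 8446 KO barcodes. Cells with at least 200 genes and at most 10% mitochondrial UMIs were kept, as in the study's methods (5661 and 8157). The automatic threshold of Scrublet called 1 doublet per library, so the 256 and 532 cells with the highest scores were removed, at 0.8% per 1000 cells. Classes came from gates on markers per 10000 UMIs, with at least 2 UMIs, whose thresholds were set after the data were examined. Cells passing more than 1 gate (6.09% and 3.59%) or none (10.6% and 10.2%) were left out. Members and gene lists were chosen with earlier results of these data known.

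UMIs were summed per class and library and divided by the class total (CPM). Intervals were exact Poisson for levels, Clopper-Pearson for shares and conditional binomial for ratios, at 95%, and cover counting error only. No test between genotypes was run. Ratios across all genes used a pseudocount of 1 CPM, a mean of at least 10 CPM and a threshold of 1.5-fold. Leiden clustering (scanpy 1.11.5, leidenalg 0.10.2, 2000 variable genes, 30 components, 20 neighbours, resolution 1) left out the Schlafen genes and gave 25 clusters. Genes named beside the members were Mettl3 and Lyz2, the 5 genes with profiles most like that of Slfn4 and the 3 most like that of each other member, among genes reaching 50 CPM in a sum, and the 4 highest and 4 lowest ratios of the type I list. A gene that this rule names and a leading gene of a cluster are not reported here. Markers, leading genes of clusters, single genes of the other lists and the 5 genes above Slfn4 in macrophage-like cells were outside this rule and were named after their values were seen. Promoters were from RefSeq GRCm38.p6, positions and coding sequences from GENCODE on GRCm38 (7 of 7 gene IDs matched), and coding sequences were aligned with Biopython 1.88. The ratio calculation was tested on simulated counts. The alternatives tried were clusters instead of gates, doublets kept, a stricter cell filter (500 genes, 5% mitochondrial UMIs), the mean of per-cell CPM, thinning to 1000 UMIs, median-of-ratios scaling, equal weight per cluster, no filter on low values and a pseudocount of 5 CPM. Added after seeing the data were leaving out the interferon-led or the shallowest cluster, joining macrophage-like and monocyte-like cells, and most alternatives for the type I list.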

Additional observations from a re-analysis of the deposited data

Results flagged for a closer look

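For 4 members the difference between the libraries had opposite signs in 2 classes, each with an interval of counting error that did not reach 0, and the difference between the classes was not tested. Slfn4 had a log2 ratio of 2.27 (0.18 to 5.43) in CD4 T-like cells, from 2 and 16 UMIs, and -0.14 (-0.27 to -0.01) in granulocyte-like cells, where it turned to 0.23 with classes from clusters and to 0.13 as the mean of per-cell CPM. The lowest granulocyte-like value of Slfn4 under the alternatives tried was -0.47. Slfn5 had 1.57 (0.68 to 2.56) in pDC-like cells, from 14 and 44 UMIs, and -1.73 (-3.22 to -0.31) in NK-like cells, from 12 and 8 UMIs. Slfn2 had 0.63 (0.002 to 1.28) in melanoma-like cells, from 33 and 64 UMIs at only 5.58 and 8.64 CPM. In B-like cells Slfn2 had -1.45 (-2.33 to -0.66), from 74 and 16 UMIs. Slfn9 had 1.38 (0.12 to 2.84) in other T-like cells, from 7 and 24 UMIs. In melanoma-like cells Slfn9 had -0.54 (-0.88 to -0.20), from 161 and 139 UMIs. Classes with fewer UMIs had ratios beyond some of these, with intervals that reached 0.

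Slfn14, a member that was not among the 7, had 4 UMIs in the WT library and 6 UMIs in the library labelled KO over all cells used. Both counts were above a fixed floor of 3 UMIs. Slfnl1 had 0 and 1 UMIs, and Slfn5os, which overlaps Slfn5 on the other strand, 1 in each.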

How the results depend on the processing

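No paired analysis was possible because each genotype had 1 library. The count of members past 1.5-fold in macrophage-like cells, 2, was 4 with classes from Leiden clusters (beside 1.59% of all genes higher), 1 with equal weight per cluster (beside 1.57%) and 4 with macrophage-like and monocyte-like cells together (beside 1.88%), and 2 or 3 otherwise (beside 0.709% to 4.42%, the latter after thinning). With both classes together the share of monocyte-like cells also differed between the libraries, as given above. The count of type I genes, 15, was 0 with equal weight per cluster, 23 with both classes together, and 12 to 17 otherwise. The macrophage-like log2 ratio of Slfn4, 1.41, was 0.84 as the mean of per-cell CPM, 1.16 after thinning and 0.90 with equal weight per cluster, and 1.31 to 1.54 under the other 7 alternatives. Of 330 recomputed ratios over members and classes, 277 stayed within the interval of the reported value, 49 left it with no change of a sign that the interval had fixed, and 4 reversed: Slfn1 in granulocyte-like cells (-0.082 after thinning), Slfn4 in cDC1-like cells (-0.32 after thinning) and Slfn4 in granulocyte-like cells (0.23 with clusters, 0.13 as the mean of per-cell CPM). The causes were not tested. With 1 library each, differences between mice cannot be told apart from those between genotypes.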
